A study of Mus musculus and Mus spretus with 72 samples.

Results

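Testis expression of male Mus musculus castaneus (cas) was compared with that of 2 other sub-species of the house mouse, Mus musculus domesticus (dom) and Mus musculus musculus (mus). The comparison rests on 15 of the 72 arrays of the series, chosen by their titles: 3 cas, 6 dom and 6 mus arrays of testis, with the difference always taken as cas less the average of the dom and mus group means. Each array set testis RNA of 1 male mouse, about 12 weeks old, against a testis pool of 9 mice of the laboratory strain C57BL6, which all groups share as the common reference. The other 9 testis arrays, 6 of Mus musculus of an unnamed sub-species (ssp) and 3 of Mus spretus, a separate species, entered the fit so that all groups shared 1 estimate of the spread. The labels do not say where the animals were caught or bred, and the testis was measured as a whole organ.

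A positive value means more RNA in the named animal than in the pool. That direction is likely, as channel 2 holds the animal on every array, but no source states it, and every sign here would flip if the ratios were formed the other way. Log2 is likewise taken as the scale of the deposited ratios. A ratio carries no level, so whether a cell type's defining markers are present cannot be read from these values, and fewer cells of a type cannot be told apart from less RNA per cell.

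The testis of an adult male makes sperm without pause. Spermatogonia divide and enter meiosis as spermatocytes, and the round spermatids that result grow a tail, shape the head around a sheath of microtubules called the manchette, and repack their DNA with transition proteins and protamines. Sertoli cells nurse the germ cells and Leydig cells make testosterone. Many genes of male germ cells are known to change quickly between related species.

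Between 42946 and 44716 of the 46128 spots of a testis array carried a value. Neighbouring spots of the same probe were averaged, arrays were centred on their medians, and 20754 probes had at least 2 values in every group. The cas arrays correlated with each other at 0.24 to 0.41 over all probes, and with the dom arrays at -0.29 to 0.42 around a median of 0.13. The dom arrays correlated no better with each other, at -0.06 to 0.48 around a median of 0.10. Medians were 0.19 among the mus arrays and 0.18 between cas and mus. All 3 cas arrays share a pattern of missing spots with mus 07 and mus 08 and with the spretus arrays, while 5 dom, 4 mus and all ssp arrays have another pattern, and dom 01 has one of its own. No label says what these sets are, so the called genes are also given against mus 07 and mus 08 alone, where both have a value.

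Few probes separated cas from dom and mus. limma called 4 of 20754 probes at a Benjamini-Hochberg adjusted p under 0.05, which is 0.0193% of them. Of these, 3 were higher in cas, namely Meig1, Prpf40b and a probe with no gene name in the annotation used here, and 1 was lower, Gnpnat1. An unadjusted p under 0.05 was reached by 1298 probes. Set against dom alone, 6 probes were called (0.0289%), and against mus alone 2 (0.00964%), with the cas arrays shared by both. The median standard error of a difference was 0.098, and the median difference over all probes was -0.0027.

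**Figure D1:**
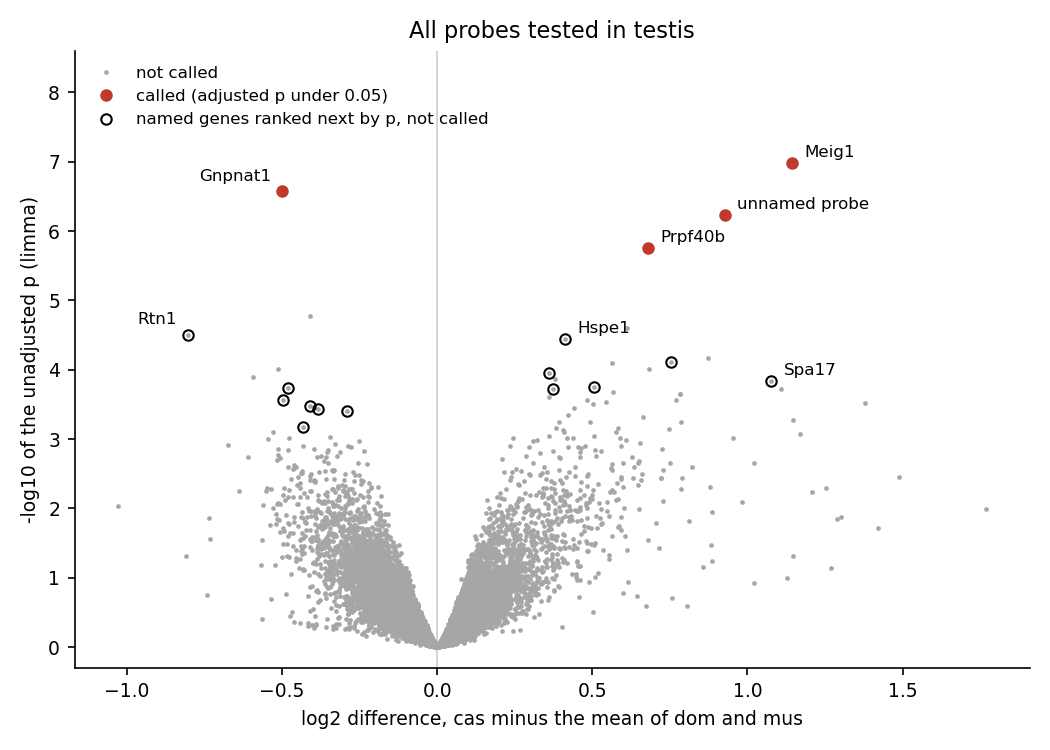
Difference between cas and the mean of dom and mus for all 20754 probes tested in testis (x axis, log2) against -log10 of limma's unadjusted p (y axis). Red points are the 4 called probes, and open circles are the named genes ranked next by p, which were not called; Meig1 lies at 1.14 and Gnpnat1 at -0.50.

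The start regions of the 2 called genes found in the RefSeq promoter table (GRCm38.p6) are shown because these genes carry the comparison. Of 3 called genes with a symbol, Gnpnat1 was not in the table. Each line gives the 250 bases before an annotated start, read 5′ to 3′ on the strand of the gene. Meig1 has 3 annotated starts on the minus strand of chromosome 2, and the first of 2 starts of Prpf40b lies on the plus strand of chromosome 15. Which start testis uses was not measured. Capitals mark matches on either strand to 6 short motifs. The TATA box was searched as the letters TATAAA and the box bound by the factor NF-Y as the letters CCAAT. The GC box, bound by factors of the Sp family, was searched as the letters GGGCGG. For CREB and CREM a part of their site was searched, with the letters TGACG. The MYB core had the letters AACNGT, where N is any base, and the RFX part-site the letters GTTGCC.
Meig1, first start, chr2:3422649-3422898: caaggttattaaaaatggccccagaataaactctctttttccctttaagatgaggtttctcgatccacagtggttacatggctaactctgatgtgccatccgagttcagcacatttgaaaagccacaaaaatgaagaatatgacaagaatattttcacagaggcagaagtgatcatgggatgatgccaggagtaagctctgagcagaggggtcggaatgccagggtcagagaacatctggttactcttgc
Meig1, second start, chr2:3419130-3419379: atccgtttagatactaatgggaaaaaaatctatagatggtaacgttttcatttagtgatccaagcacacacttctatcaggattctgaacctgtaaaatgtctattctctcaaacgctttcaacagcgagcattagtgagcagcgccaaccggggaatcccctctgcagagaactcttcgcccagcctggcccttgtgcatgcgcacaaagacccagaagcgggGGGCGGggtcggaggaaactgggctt
Meig1, last start, chr2:3418598-3418847: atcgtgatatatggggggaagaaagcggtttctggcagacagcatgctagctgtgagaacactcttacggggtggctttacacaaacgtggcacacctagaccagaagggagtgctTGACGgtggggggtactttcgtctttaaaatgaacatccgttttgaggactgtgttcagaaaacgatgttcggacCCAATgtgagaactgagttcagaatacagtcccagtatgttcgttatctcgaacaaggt
Prpf40b, first start, chr15:99294991-99295240: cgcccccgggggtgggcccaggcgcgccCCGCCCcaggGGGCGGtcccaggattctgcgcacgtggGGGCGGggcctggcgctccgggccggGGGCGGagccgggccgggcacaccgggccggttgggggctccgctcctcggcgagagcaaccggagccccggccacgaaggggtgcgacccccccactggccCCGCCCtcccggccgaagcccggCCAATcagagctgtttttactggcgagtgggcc

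The first Meig1 window holds none of the 6 motifs, the second a GC box 26 bases before its start, and the last a CREB part-site 134 bases and an NF-Y box 59 bases before its start. The Prpf40b window holds 5 GC boxes and an NF-Y box, and its GC content is 79.6%, against 43.6% to 49.2% in the Meig1 windows and a median of 52.4% over 32851 windows of the same length. The second Prpf40b start, not printed, has a window of 49.6% GC with no GC box, an NF-Y box and a MYB core, so the high GC content belongs to the first start alone. In those windows the NF-Y box occurs in 33.8%, the GC box in 32.7%, the MYB core in 22.3%, the CREB part-site in 17.8%, the TATA box in 12.4% and the RFX part-site in 10.4%. These matches describe the letters of a C57BL6 reference and were not tested for any function.

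Meig1, the gene for a small protein that mouse spermatids need to build the manchette and form sperm, was the most clearly higher in cas. Its log2 ratio to the pool was 0.90, 1.08 and 1.24 in cas 01, 02 and 03. In the 6 dom animals it ran from -0.30 to 0.42 with a median of -0.07, and in the 6 mus animals from -0.64 to 0.16 with a median of -0.02. Every cas animal lay above every dom and mus animal, the nearest being dom 01. The difference was 1.14 ± 0.15 (SE; 3 cas, 6 dom and 6 mus arrays), or 2.21-fold, with an adjusted p of 0.00218 in limma. Against dom alone it was 1.098 (adjusted p = 0.00903) and against mus alone 1.19 (adjusted p = 0.00512), both with the same cas arrays. Against mus 07 and mus 08, the pair with the missing spots of cas, it was 1.53 ± 0.15 (limma adjusted p = 0.0404).

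Prpf40b, the mouse relative of a yeast splicing factor of the U1 particle that marks the start of introns, was the other named gene higher in cas. Its log2 ratio was 0.43, 0.60 and 0.68 in the 3 cas animals. In dom it ran from -0.50 to 0.14 with a median of -0.07, and in mus from -0.20 to -0.02 with a median of -0.09. Again no dom or mus animal reached the lowest cas animal. The difference was 0.68 ± 0.11 (SE), 1.60-fold, with an adjusted p of 0.00905 in limma. It was 0.69 against dom (adjusted p = 0.0259) and 0.67 against mus, where it missed the threshold (adjusted p = 0.0592). Against mus 07 and mus 08 it was 0.698 ± 0.12 (limma adjusted p = 0.262). Without cas 02 the adjusted p was 0.0995 and without cas 03 it was 0.078, both in limma.

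The unnamed probe had log2 ratios of 1.37, 1.08 and 0.93 in cas. In dom it ran from -0.30 to 0.44, and in mus from 0.17 to 0.47 over 5 animals, since mus 08 had no value. All cas animals lay above these 11 animals. The difference was 0.93 ± 0.13 (limma adjusted p = 0.00406), and without cas 01 it was 0.81 (adjusted p = 0.075).

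Gnpnat1 encodes the acetyltransferase that makes N-acetylglucosamine 6-phosphate, a step toward the sugar donor of protein glycosylation, and it was the 1 called gene lower in cas. Its log2 ratio was -0.45, -0.46 and -0.50 in the 3 cas animals, a spread of 0.028 (SD, n = 3). In dom it ran from -0.09 to 0.06 with a median of 0.04, and in mus from -0.08 to 0.16 with a median of 0.06. The cas animals thus sat close together and below all 12 others. The difference was -0.50 ± 0.07 (SE), a 1.42-fold fall, with an adjusted p of 0.00278 in limma. It was -0.48 against dom (adjusted p = 0.0167) and -0.53 against mus (adjusted p = 0.00545). Against mus 07 and mus 08 it was -0.53 ± 0.09 (limma adjusted p = 0.262). With the missing-spot set as a term over all testis arrays, Meig1 was still called, whereas Gnpnat1 and Prpf40b (limma adjusted p = 0.078 for both) and the unnamed probe (adjusted p = 0.212) were not. Their differences in that fit were -0.52 for Gnpnat1, 0.75 for Prpf40b and 0.96 for the unnamed probe. Only the mus group has arrays both in the set of cas and in the other large set. The set term thus rests on mus 07 and mus 08, and for the unnamed probe on mus 07 alone.

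**Figure D2:**
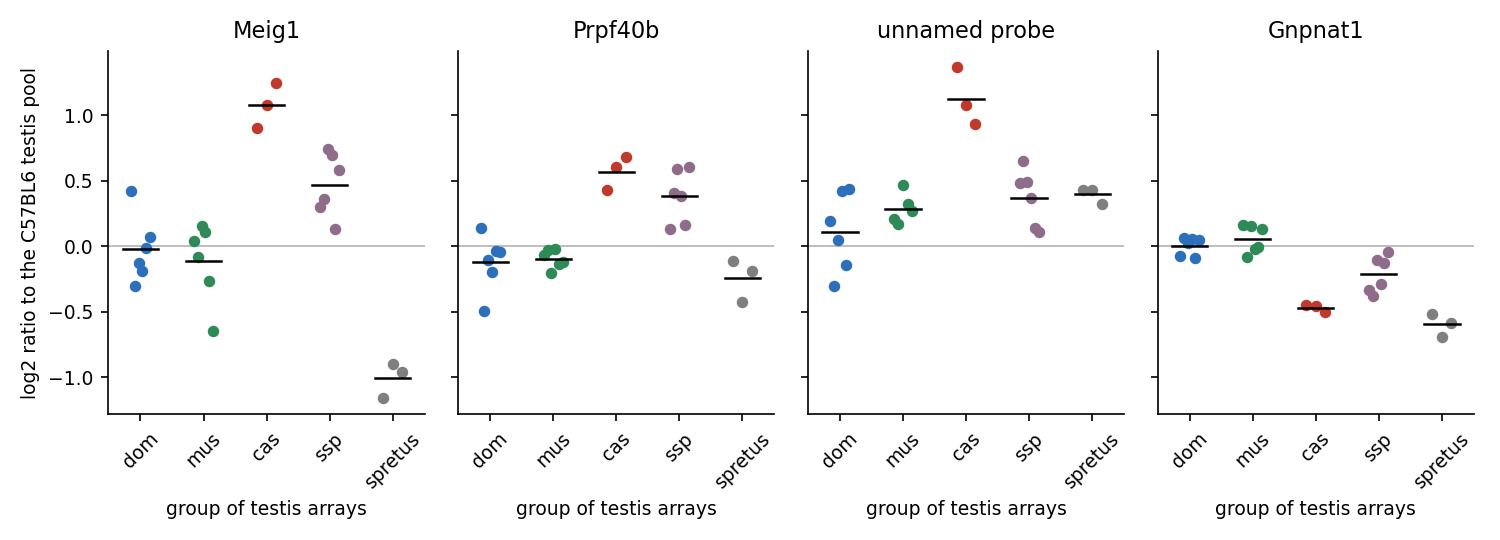
Log2 ratio to the C57BL6 testis pool (y axis) of the 4 called probes on every testis array, by group (x axis); bars are group means. The cas points stand above all dom and mus points for Meig1, Prpf40b and the unnamed probe and below them for Gnpnat1; spretus lies near -1 for Meig1.

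The other testis groups give these values a wider setting. In ssp, Meig1 ran from 0.13 to 0.75 (median 0.47), between the other sub-species and cas, and all 6 ssp animals lay below the lowest cas animal. In spretus it was -1.16, -0.90 and -0.96, below the testis of every other animal. The difference between cas and spretus was 2.08 (95% interval 1.69 to 2.47, limma adjusted p = 1.37e-07), and that between cas and ssp 0.61 (95% interval 0.27 to 0.95), which did not pass after adjustment over all probes. Prpf40b in ssp ran from 0.13 to 0.61 and overlapped the cas range, with a difference of 0.19 (95% interval -0.05 to 0.43), while the spretus animals lay between -0.43 and -0.11. Gnpnat1 in ssp ran from -0.38 to -0.05, all above cas, and in spretus from -0.69 to -0.51, all below cas. The cas and spretus values lay close together (cas minus spretus 0.13, 95% interval -0.06 to 0.31). Over all probes limma called 614 between cas and spretus and 0 between cas and ssp, where 690 had an unadjusted p under 0.05.

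The same contrast was fitted in brain and in liver/kidney of the same groups, in 1 model of all 72 arrays. Testis minus brain was called for 9 of 20589 probes (0.0437%) and testis minus liver/kidney for 82 (0.398%). Meig1 showed -0.01 ± 0.12 in brain and -0.12 ± 0.12 in liver/kidney. Its testis difference exceeded that in brain by 1.15 (limma adjusted p = 5.02e-05) and that in liver/kidney by 1.26 (adjusted p = 3.56e-06). Prpf40b showed -0.13 ± 0.12 in brain and 0.14 ± 0.12 in liver/kidney, and its testis difference was called as larger than that in brain (0.81, limma adjusted p = 0.0435) and missed the threshold against liver/kidney (0.54, adjusted p = 0.14). Without the animal as a block the first of these had an adjusted p of 0.052 in limma. In brain Prpf40b was 0.11 in cas 01, 0.13 in cas 02 and -0.59 in cas 03, so only cas 03 lay below 0. Gnpnat1 showed 0.02 ± 0.10 in brain and 0.09 ± 0.10 in liver/kidney. The gap to testis was called against liver/kidney (-0.59, limma adjusted p = 0.0475) and not against brain (-0.52, adjusted p = 0.182), and without the block the former had an adjusted p of 0.0543. In liver/kidney Gnpnat1 was 0.57 in cas 01 and -0.14 in cas 02 and cas 03. The part of such single arrays in the gaps between tissues was not tested. The unnamed probe was 0.26 ± 0.15 in brain and 0.17 ± 0.15 in liver/kidney, and neither gap to testis was called. In liver/kidney no dom or mus array shares the missing spots of the cas arrays, and in brain 2 mus arrays share them with 2 of the cas arrays, so the sets are spread differently over the tissues.

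**Figure D3:**
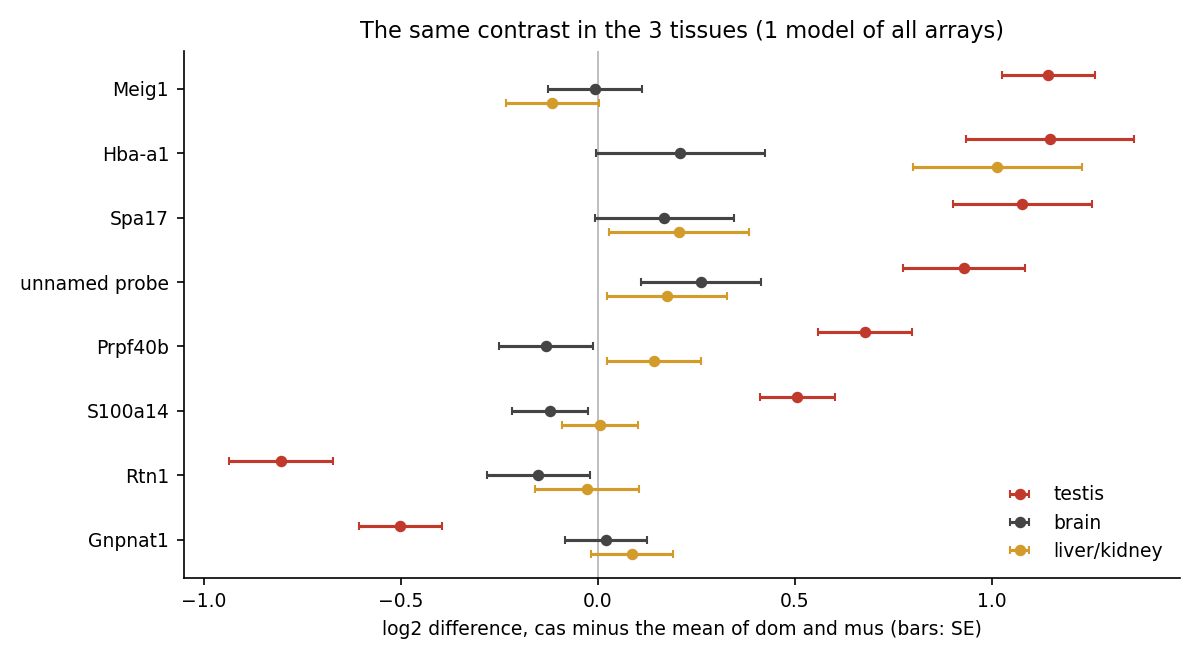
Log2 difference between cas and the mean of dom and mus (x axis) for 7 genes and the unnamed probe in testis, brain and liver/kidney, from 1 model of all 72 arrays; bars are SE. Meig1 stands at 1.14 in testis and near 0 in the other tissues, whereas Hba-a1 stands at 1.15 in testis and 1.01 in liver/kidney.

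With Meig1, Prpf40b and Gnpnat1 counted among them, 67 of the 20011 probes with a value on all 15 arrays had every cas animal above every dom and mus animal (0.335%), and 68 had every cas animal below (0.34%). Their differences ranged from 0.11 to 1.14 above and from 0.13 to 0.80 in size below. A size of 1.5-fold or more was reached by 89 probes (0.429%), 79 of them higher in cas and 10 lower. Of these 89 probes, 3 were among the called ones. Among genes with a single symbol the highest difference was 1.77, above that of Meig1, for a gene that was not called.

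Of the next genes by p that were higher in cas and not called, Spa17 had the largest difference. Spa17, a protein of the sperm tail's fibrous sheath, had log2 ratios of 1.62, 0.51 and 0.85 in cas and at most 0.12 in dom and mus. Its difference was 1.08 ± 0.24 (limma adjusted p = 0.18), large but uneven between the cas animals. Hspe1, the lid of the mitochondrial chaperonin, had 0.30, 0.66 and 0.25 in cas, above the highest dom animal at 0.19. Its difference was 0.41 ± 0.08 (limma adjusted p = 0.0949), and it was called without cas 03 (adjusted p = 0.0418) or without dom 06 (0.0269). Ttc30a1, of the intraflagellar transport complex that builds cilia and tails, differed by 0.36 ± 0.08 with no overlap; it has near-identical copies in the genome, which a probe may not tell apart. The calcium-binding S100a14 differed by 0.51 ± 0.11 with no overlap between groups. Egfl7, which endothelial cells secrete, differed by 0.76 ± 0.16, but dom 01 at 0.86 overlapped the cas animals, and mus 03 had no value; without dom 01 it was called (0.81, limma adjusted p = 0.0202). The muscle regulator Myf5 differed by 0.37 ± 0.08, with cas 02 at -0.00 among the dom and mus animals, and was called without cas 02 (0.53, limma adjusted p = 0.0272).

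The next genes lower in cas hold enzymes and membrane proteins. Rtn1, a protein that shapes the endoplasmic reticulum, had log2 ratios of -0.87, -0.98 and -0.72 in cas. The dom animals ran from -0.53 to 0.31 and the mus animals from -0.26 to 0.31, with no overlap. Its difference was -0.80 ± 0.16 (limma adjusted p = 0.0924; called without dom 06, adjusted p = 0.0197), the lowest value among all genes with a single symbol. For Rtn1, 5 of the 6 ssp animals lay between -0.76 and -0.55, beside cas, and the spretus animals between 0.01 and 0.46. Unc5b, a netrin receptor, was tight in cas at -0.60, -0.53 and -0.56 and differed by -0.498 ± 0.12. In the model of all arrays it was also lower in cas in liver/kidney (-0.87 ± 0.16, limma adjusted p = 0.000713), with -0.09 ± 0.16 in brain. Ranbp10, which binds the transport protein Ran and microtubules, differed by -0.48 ± 0.11. That model gave it -0.57 ± 0.14 in brain (limma adjusted p = 0.0164) and -0.41 ± 0.14 in liver/kidney (adjusted p = 0.0903). In brain Ranbp10 was -0.12 in cas 01, -1.14 in cas 02 and -0.21 in cas 03. A fit of the brain arrays alone did not call it (limma adjusted p = 0.132). In ssp Ranbp10 ran from -0.57 to 0.04 and overlapped the cas animals. G6pd2, an intronless copy of the glucose-6-phosphate dehydrogenase gene used in spermatids, differed by -0.41 ± 0.10, and a probe may not separate it from its X-linked parent. Hpd of tyrosine breakdown differed by -0.38 ± 0.09 and Cad of pyrimidine synthesis by -0.29 ± 0.07. Hcfc1r1, a partner of the cell cycle regulator HCF-1, differed by -0.43 ± 0.11. Hpd, Cad and Hcfc1r1 also had every cas animal below all dom and mus animals. In spretus Cad ran from -0.32 to -0.14, and Hpd was at -0.43 and -0.40 in spretus 02 and 03. Adjusted p in testis for these 6 genes lower in cas ran from 0.19 to 0.328 in limma.

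**Figure D4:**
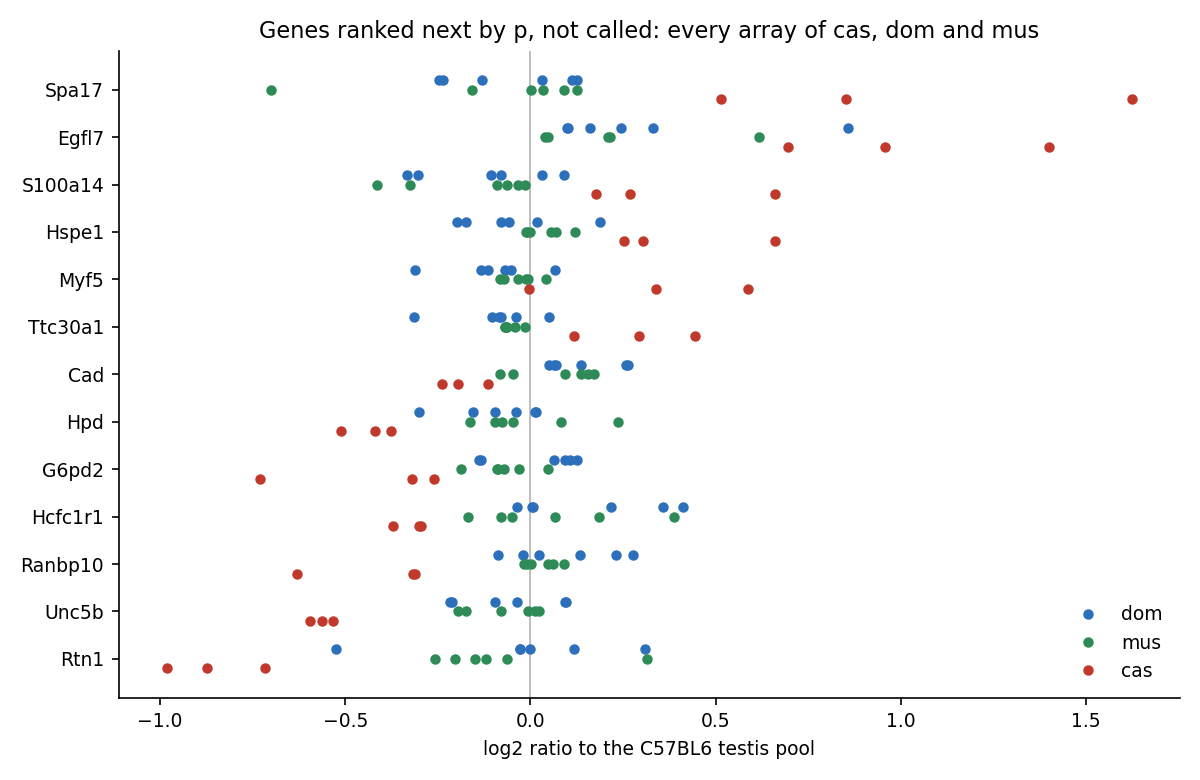
Log2 ratio to the C57BL6 testis pool (x axis) on every cas, dom and mus array for the 13 named genes ranked next by p, none of them called. Red cas points lie outside the blue dom and green mus points for all genes but Egfl7 and Myf5.

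Germ cell genes other than Meig1 showed no shared shift between cas and the other sub-species. Over 13723 genes with a single symbol, 951 had an unadjusted p under 0.05, and the median difference was -0.0027 with 48.8% of genes above 0. Of all these genes 2 were called higher and 1 lower, so a list without a call is usual and says little. Among 28 genes of meiosis and spermatocytes, 1 was called higher, Meig1, and 0 lower, with a median of 0.0026. Among 29 genes of the sperm tail and manchette, Meig1 was again the 1 called, and the median was -0.0042. None of the 12 spermatogonial, 31 round spermatid or 16 sperm-egg interaction genes was called by limma in either direction, with 1, 2 and 1 at an unadjusted p under 0.05 and medians of -0.014, -0.022 and -0.0047. On the 3 cas arrays the median ratios of these 5 lists lay between -0.11 and 0.03, and for each list they overlapped those of the dom arrays.

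Among the DNA packing genes of late spermatids, Tnp1 had the largest difference of its list. Tnp1, a transition protein, had log2 ratios of 0.44, 0.93 and 1.06 in cas, from -0.52 to 0.58 in dom and from -0.31 to 0.70 in mus. The groups overlapped, and the difference of 0.78 ± 0.25 was not called (limma adjusted p = 0.495). Prm1, a protamine, had -0.03, 0.61 and 0.91 in cas, so that cas 01 lay among the dom and mus animals and the other cas animals above them, and differed by 0.40 ± 0.18 (limma adjusted p = 0.754). Kif3a, a motor of tail assembly, was at 0.86 in cas 01 and at -0.01 and 0.03 in the other cas animals (difference 0.36 ± 0.14, not called). The other packing genes, named after their values were seen, were near 0 or within their error: Tnp2 differed by 0.17 ± 0.21, Prm2 by -0.04 ± 0.25 and Prm3 by -0.01 ± 0.11. Clgn, a chaperone that sperm need to bind the egg, differed by 0.24 ± 0.11 on 1 probe and by -0.05 on another.

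Genes of the somatic cells were close to 0 as well. Sertoli cell genes had a median of -0.017 over 18 members, Leydig and steroid genes -0.0042 over 10, and peritubular, endothelial and blood genes 0.011 over 18. None was called by limma, as was the case for nearly all genes, with 3, 1 and 1 members at an unadjusted p under 0.05. Amh, the hormone of immature Sertoli cells, differed by 0.19 ± 0.07 and Inhbb, an inhibin subunit, by 0.24 ± 0.09. Hsd17b3, the last enzyme of testosterone synthesis, differed by -0.23 ± 0.10, and all were not called. Inhbb was at 0.53 in cas 01 and at -0.04 and 0.06 in cas 02 and 03. The Sertoli gene Gdnf, a factor that keeps stem cells dividing, also had an unadjusted p under 0.05 in limma. It went the other way from Amh and Inhbb (-0.22 ± 0.10, not called). Genes of the accessory glands and of the epididymis, the duct next to the testis, formed 1 list of 17 members. Its median was -0.034, with 0 called and 1 at an unadjusted p under 0.05 in limma.

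Hba-a1 had the largest difference among the genes of blood and vessels. Hba-a1, the alpha chain of haemoglobin, had log2 ratios of 2.54, 0.70 and 0.17 in cas 01, 02 and 03, so cas 01 stood far above the others. The dom animals ran from -0.37 to 0.90 and the mus animals from -0.26 to 0.07. Its difference was 1.15 ± 0.29 (limma adjusted p = 0.29), and without cas 03, the lowest of the 3, it was called (1.63, adjusted p = 0.0217). The other red cell genes of the list, named after their values were seen, did not share it: Hbb-b2, a beta chain of haemoglobin, differed by 0.04 ± 0.09 and Alas2, the first enzyme of haem synthesis in red cells, by 0.13 ± 0.08. The leukocyte gene Ptprc differed by -0.08 ± 0.09 and the antibody gene Igkc by -0.43 ± 0.23, again with no call. Meig1 and Prpf40b did not follow this order, since cas 01 had the lowest Meig1 and Prpf40b of the 3 cas animals. But the unnamed probe, Spa17, Egfl7, Kif3a, Myf5 and Inhbb were among those highest in cas 01. Without cas 01 the unnamed probe differed by 0.81 and was not called (limma adjusted p = 0.075). The part of this 1 animal in their values was not tested beyond leaving it out. In liver/kidney Hba-a1 was also higher in cas (1.01 ± 0.21, limma adjusted p = 0.0026 in the model of all arrays).

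Housekeeping complexes were mixed. Of 66 cytosolic ribosomal protein genes 0 were called by limma and 15 had an unadjusted p under 0.05. Their median was 0.027, 66.7% of them lay above 0, and 3 had every cas animal above all dom and mus animals. Over all 13723 genes, 951 had an unadjusted p under 0.05 in limma, 48.8% lay above 0, and 47 had every cas animal above. Rpl38 had 1.02, 1.05 and 1.18 in cas, and its difference was 0.78 ± 0.18 (limma adjusted p = 0.197). On dom 01 it was 0.99, while the other dom animals lay between 0.01 and 0.59, and without dom 01 the gene was called (0.85, limma adjusted p = 0.0385). Rps12 differed by 0.58 ± 0.15. The members' differences ran from -0.38 to 1.42.

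Of 68 subunits and assembly factors of oxidative phosphorylation 0 were called by limma, 6 had an unadjusted p under 0.05, and the median was 0.038. Atp5j of the ATP synthase had 1.15, 1.2 and 1.26 in cas. But dom 01 stood at 1.45 with the other dom animals at most at 0.27, and the difference was 0.95 ± 0.25 (limma adjusted p = 0.345). Without dom 01 it was 1.07 and was called (limma adjusted p = 0.0279). Against mus 07 and mus 08 alone Atp5j was called (1.09 ± 0.08, limma adjusted p = 0.0136). The ssp animals ran from 0.13 to 1.68. Ndufv1 of complex I was lower by -0.33 ± 0.09.

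Heat shock proteins and chaperones had the lowest list median, -0.06 over 33 genes, with 0 called by limma, 7 at an unadjusted p under 0.05 and 39.4% above 0. With the missing-spot set as a term that median was 0.0432. Hspe1 and Cct4, a subunit of the cytosolic chaperonin, nevertheless had every cas animal above all dom and mus animals. Over all 13723 genes, 47 had every cas animal above, and 951 had an unadjusted p under 0.05 in limma. For Cct4 the separation held on 1 probe (0.65 ± 0.19), and another differed by -0.23. The first Cct4 probe ran from 0.56 to 0.94 in cas, 0.02 to 1.28 in ssp and 1.09 to 1.30 in spretus. In the model of all arrays its difference was 1.08 ± 0.22 in liver/kidney (limma adjusted p = 0.00198) and 0.69 ± 0.22 in brain (adjusted p = 0.103). In liver/kidney the cas animals were at 1.43, 0.22 and 1.85, with cas 02 below the highest mus animal at 0.29. A fit of the liver/kidney arrays alone did not call this probe (limma adjusted p = 0.054). Of 45 splicing genes Prpf40b was the 1 called and the median was 0.034, with 5 at an unadjusted p under 0.05 in limma. The highest difference of that list, 1.30, belonged to another member, which was not called. Of 28 genes of the hexosamine pathway and protein glycosylation Gnpnat1 was the 1 called, its list median being 0.024. The next of that list, Cmas, which activates sialic acid, differed by -0.19 ± 0.09. The 42 proteasome genes had a median of 0.013 and the 19 germline genes of the sex chromosomes 0.018, with 0 called by limma in each, and 3 and 1 at an unadjusted p under 0.05. Among the 13 Y-linked probes the largest difference was that of Kdm5d, a histone demethylase (0.37 ± 0.17, limma adjusted p = 0.734).

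**Figure D5:**
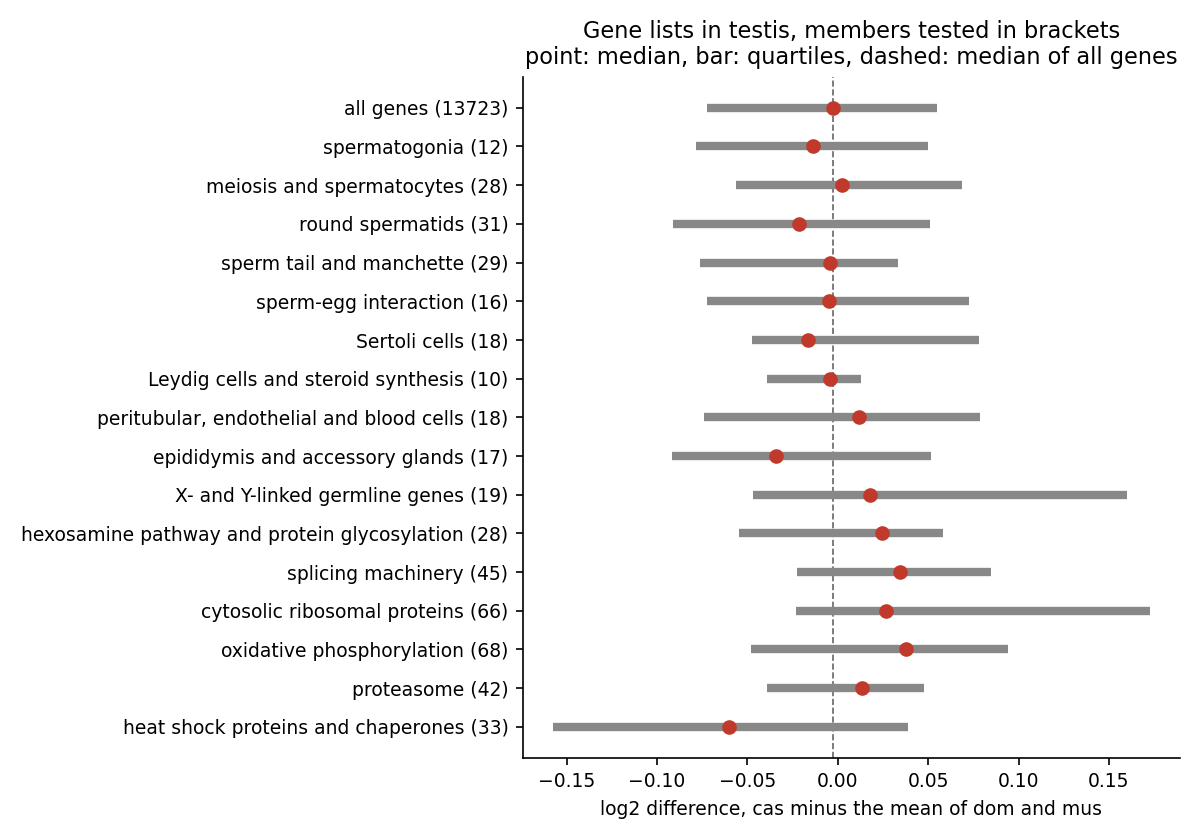
Median (points) and quartiles (bars) of the log2 difference between cas and the mean of dom and mus (x axis) for 16 gene lists and for all genes; the dashed line is the median of all genes, -0.0027. List medians lie between -0.06 for heat shock proteins and chaperones and 0.04 for oxidative phosphorylation.

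The called genes lie on chromosomes 2, 14 and 15. The 499 X-linked probes had a median of 0.00074 and 0 calls, with every cas animal below all dom and mus animals for 1 probe and above them for 0. The 14260 autosomal probes had a median of -0.0027, with 46 probes above and 46 below in this sense.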

How the data were processed

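The authors deposited 1 log ratio per spot and array. These deposited values are read as log2 of the animal over the pool of 9 C57BL6 mice; no source used here gives the log base, direction, normalization or scanner. Here, arrays were centred on their medians and the 22320 pairs of neighbouring spots of the same probe were averaged; 1488 single spots were left out. Of 22089 probes, 15801 had 1 gene symbol, 294 several and 5994 none in the platform annotation. limma 3.58.1 (R 4.3.3) was fitted to all 24 testis arrays with a mean per group, for 20754 probes with at least 2 values in every group, with Benjamini-Hochberg adjustment over all of them. Tissues were compared by fitting all 72 arrays at once, each animal being a random block over its tissues. Each animal is 1 array, so the number of arrays limits the precision.

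Named genes are the called probes, the 8 named probes with the smallest p in each direction, the 2 such members of each gene list, and the 3 such called in cas minus dom or cas minus mus in each direction; RIKEN clones, models and probes with several symbols were passed over. The fits were tested on simulated data. The comparison, its lists and the rule were chosen with earlier results of these data known. Alternatives changed the normalization, arrays, spots, spread, blocks and missing-spot sets.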

Additional observations from a re-analysis of the deposited data

Results flagged for a closer look

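Some single arrays lay far from the rest of their group. In 9 of 88 groups tested the highest or lowest array passed Dixon's criterion, which chance passes in about 1 group in 20. On dom 01, Egfl7 was 0.86, Atp5j 1.45 and Mybl1 -0.0835. On mus 07, Spa17 was -0.70, Ott, an X-linked gene of germ cells, 0.29 and Ndufv1 -0.56. Rtn1 was 0.31 on mus 05, Atp5j 0.56 on mus 04 and Spag11a, a gene of the epididymis, 0.25 on dom 03. All of these are dom or mus arrays. The list does not clear the cas arrays, where Hba-a1 was 2.54 and Kif3a 0.86 on cas 01. The part of the listed arrays in the differences was not tested beyond leaving each out.

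The difference between cas and the mean of dom and mus was itself called as unequal between tissues for 5 named genes in limma. Testis minus brain was 1.15 for Meig1, 0.81 for Prpf40b and 0.63 for S100a14. Testis minus liver/kidney was 1.26 for Meig1, -0.59 for Gnpnat1 and -0.78 for Rtn1. For Prpf40b in brain and Gnpnat1 in liver/kidney, a single cas animal lay far from the others, as given above.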

How the results depend on the processing

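The number of called probes depended on the settings. Against the 4 called for cas and the mean of dom and mus, limma called 12 with the cas, dom and mus arrays alone, 15 after quantile normalization, 100 with array weights, 7 from the second spot of each pair, 18 with the missing-spot set as a term, 170 with both spots as duplicate spots and, chosen after seeing the data, 47 with the spread shared over the arrays of all tissues. Leaving out 1 array gave 4 to 14, with 14 without cas 03 and 11 without dom 01. With the replicate number as a block limma called 0 probes, and 939 had an unadjusted p under 0.05. Deviations of the 6 same-numbered pairs correlated at -0.15 to 0.099 (median -0.053), and those of 66 other pairs at -0.31 to 0.42 (median -0.009). Different groups hold different animals, so the numbers were taken as names. Whether a number marks anything else that arrays share was not tested.

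For cas minus dom (6 called) the count was 16 after quantile normalization, 106 with array weights, 3 with probes valued on all testis arrays, 2 from the first spot, 3 with a trended robust spread, 0 with the replicate block (1400 at an unadjusted p under 0.05), 2 with the set as a random block, 224 with duplicate spots and, chosen after seeing the data, 3 without mus 07 and mus 08. Leaving out 1 array gave 3 to 12, with 3 without cas 02, cas 03 or dom 05 and 12 without dom 01. For cas minus mus (2 called) it was 10 after quantile normalization, 29 with array weights, 1 from the first spot, 1 with a trended robust spread, 0 with the replicate block (564 unadjusted), 12 with the set as a term, 79 with duplicate spots and 1 at 1.5-fold or more. Leaving out 1 array gave 0 to 11, with 0 without cas 02 (1081 unadjusted), 11 without cas 03 and 4 without cas 01 or dom 03. Testis minus brain (9 called) fell to 1 without the animal block and, chosen after seeing the data, to 3 without mus 08 in brain, whose labels disagree on its sub-species. Meig1 stayed called in both, Prpf40b only in the second (adjusted p = 0.0329) and S100a14 in neither (0.052 and 0.0567). Fitting each tissue on its own gives no test of the difference. Of the gene list members (3 called), 5 were called after quantile normalization, 9 with array weights, 0 with the replicate block, 16 with duplicate spots and 2 to 5 leaving out 1 array (5 without dom 01). The cause of these changes was not tested.

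Meig1 was called in all 15 runs that left out 1 array (1.06 to 1.23), and Gnpnat1 likewise (-0.51 to -0.48). With the replicate block the differences were 1.06 for Meig1, 0.898 for the unnamed probe, -0.47 for Gnpnat1 and 0.69 for Prpf40b, with adjusted p of 0.2998, 0.2998, 0.511 and 0.735. With the missing-spot set as a term Meig1 was called, and Gnpnat1 and Prpf40b had an adjusted p of 0.078 and the unnamed probe of 0.212. From the first spot alone Prpf40b had an adjusted p of 0.0637. With the set as a term Catsper1 turned from -0.44 to 0.0398 and Svs5 from -0.19 to 0.0867, neither called. The arrays carry no intensities here, so signal over background could not be used.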
